A study of Mus musculus with 8 samples.

Results

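The 10 genes studied here, of cholesterol efflux and of the liver X receptor (LXR) response, were followed in RNA sequencing of cells selected with F4/80 beads from mouse inguinal fat pads. The genes were chosen by symbol, namely Abca1, Abcg1, Apoe, Pltp, Mylip, Smpdl3a, Nr1h3, Srebf1, Lpcat3 and Apoc2, and each was found by its Ensembl identifier. They are 10 of the 56748 rows of the count table, and 9 of them passed the filter on low counts, which kept 16780 genes in all. The remaining gene, Apoc2, had 0 counts in every library. Libraries of 2 groups were compared, with 4 libraries each. The Aldara group came from wild-type female mice that received 62.5 mg of a cream with 5% imiquimod, a Toll-like receptor 7 agonist, on shaved dorsal skin on 3 consecutive days. The Vehicle group came from wild-type female mice given an equal volume of a control cream (Boots Aqueous Cream with 10% Vaseline Lanette Cream). Fat pads were taken 24 h after the last dose in both groups, cells were selected with F4/80 beads, and each library pooled the cells of 6 fat pads. The submitters give the purity by flow cytometry as over 90% F4/80+ CD64+ cells. No age is given. The labels do not say whether different libraries drew on different animals, and the p-values below describe pool-to-pool spread, which may be partly technical. An effect of imiquimod cannot be told apart from one of the cream it was given in.

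LXRs are nuclear receptors that sense oxysterols, the oxidised forms of cholesterol, and that bind DNA as partners of the retinoid X receptors. In macrophages that have taken up lipoproteins or dead cells they switch on transporters that pass cholesterol to lipoprotein particles, apolipoproteins that accept it, and a ligase that removes lipoprotein receptors from the cell surface. The opposite arm, driven by SREBP2, makes and imports cholesterol when sterols are scarce. Adipose tissue macrophages handle lipid released by fat cells and by dying cells, and are a site where this balance is used.

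LXR with its partner binds a direct repeat of the motif AGGTCA with 4 bases between the copies, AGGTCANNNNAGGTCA. The RefSeq promoter table (GRCm38.p6, 250 bases before to 50 after each start) held entries for 8 of the 10 genes, with 13 starts, and each was searched on both strands for the window that shares most of the 12 fixed letters. The best windows among these starts shared 9 letters and lay in promoters of Abca1 and Srebf1. At least 9 letters were found in 21.9% of all 32851 promoters of the same length, so a match of that many letters is common. The number of letters does not tell whether LXR binds a window, which was not tested here. Both windows are shown because Abca1 and Srebf1, which hold nearly the same 16 bases, moved differently in these libraries. The lines give the 250 bases before the start, with the window in capitals, for Abca1 at chr4:53159896-53160145 and for Srebf1 (the most downstream of 3 listed starts) at chr11:60210472-60210721, both on the minus strand.
Abca1: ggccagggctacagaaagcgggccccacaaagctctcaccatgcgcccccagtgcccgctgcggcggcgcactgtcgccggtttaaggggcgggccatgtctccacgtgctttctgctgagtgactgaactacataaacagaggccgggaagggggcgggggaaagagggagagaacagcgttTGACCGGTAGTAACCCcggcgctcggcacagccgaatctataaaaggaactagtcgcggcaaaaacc
Srebf1: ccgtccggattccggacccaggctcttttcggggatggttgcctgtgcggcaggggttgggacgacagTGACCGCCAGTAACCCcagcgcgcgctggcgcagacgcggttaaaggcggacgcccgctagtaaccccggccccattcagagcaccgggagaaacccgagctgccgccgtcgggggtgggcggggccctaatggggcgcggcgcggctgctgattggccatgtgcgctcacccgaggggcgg
The capitals read as the reverse complement of the motif, from base -67 to -52 before the start of Abca1 and from -182 to -167 before that of Srebf1. The windows are identical at 14 of 16 bases. The counts cannot be assigned to the separate starts of Srebf1.

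In GRCm38 the genes that rose lie apart from each other, Abca1 at chr4:53030787-53159895 (minus strand), Abcg1 at chr17:31057675-31117988 (plus), Pltp at chr2:164839518-164857711 (minus), Mylip at chr13:45389742-45412022 (plus) and Smpdl3a at chr10:57794335-57811830 (plus). Of the others, Apoe at chr7:19696109-19699188 and Apoc2 at chr7:19671579-19677941 are neighbours on the minus strand. Nr1h3 lies at chr2:91184061-91202834 (minus), Srebf1 at chr11:60199089-60222581 (minus) and Lpcat3 at chr6:124663027-124704418 (plus). The counts are sums over the exons of each gene. The exons of Abca1, Abcg1, Mylip, Apoe and Smpdl3a overlap no other annotated exon, whereas 1.35% of the exon bases of Nr1h3 and 3.11% of those of Srebf1 do.

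The Aldara libraries held 19537607 to 24340674 counts and the Vehicle libraries 21874780 to 34471508. Levels are given as CPM, the count of a gene divided by the TMM-scaled library total and expressed on the usual scale of the unit. The label of the cells was checked against marker genes. The F4/80 and CD64 genes, Adgre1 and Fcgr1, summed to between 442 and 1450.4 CPM in Aldara and between 72.3 and 119 CPM in Vehicle, and of the pair Adgre1 rose. Of 20 macrophage genes fixed as a gauge (Ptprc, Csf1r, Cd68, Tyrobp, Spi1, C1qa and others), 16 rose and 0 fell, with summed levels of 3912 to 10448 CPM in Aldara and 1817 to 3581 CPM in Vehicle. Transcripts of 12 epithelial markers were abundant in every library, at 12654 to 16254 CPM in Aldara and 12886 to 17614 CPM in Vehicle, and 0 of the 12 were called, with 1 at an unadjusted p under 0.05. These sums were above those of the 20 macrophage genes in every library, so the marker RNA does not bear out the given purity. The share of cells cannot be read from such sums. Fibroblast markers summed to 96.8 to 191 CPM in Aldara and 246 to 638 CPM in Vehicle, with 6 of 10 fallen and 0 risen. Adipocyte markers summed to 336 to 483 CPM in Aldara and 424 to 472 CPM in Vehicle, with 3 of 10 risen. Endothelial markers summed to 375 to 660.2 CPM in Aldara and 427 to 627 CPM in Vehicle, with 0 of 8 called and 0 at an unadjusted p under 0.05. Neutrophil markers summed to 61.1 to 160.5 CPM in Aldara and 29.9 to 51.2 CPM in Vehicle, and both of the 2 tested of 8, Csf3r and Mmp9, rose. S100a8, S100a9, Retnlg, Mmp8 and Cxcr2 were at or below 0.823 CPM and not tested, each with the higher mean in Aldara. Ly6g was at 0 in both groups and so gives no comparison. Lymphocyte and dendritic cell markers were low, at 5.98 to 12 and 13.8 to 17.5 CPM in Aldara and 1.97 to 2.89 and 14.1 to 20.2 CPM in Vehicle, with 1 of 3 tested lymphocyte genes risen and 1 of 5 tested dendritic cell genes fallen. With the replicate number as a block in the model, 19 macrophage genes rose, 1 epithelial marker rose and 1 fell, 7 fibroblast markers fell, and 3 adipocyte markers rose and 1 fell. Which of these cells carried the reads of each gene was not tested.

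With Aldara, both ABC transporters of cholesterol efflux, the lipid transfer protein Pltp, the ligase Mylip and the phosphodiesterase Smpdl3a rose, between 1.78-fold and 4.57-fold. Apoe was higher on average but did not pass the test, and the receptor Nr1h3, the lipogenic factor Srebf1 and the acyltransferase Lpcat3 did not pass it either. In all, 5 of the 9 tested genes rose and 0 fell, whereas 6.98% of all tested genes rose and 3.86% fell (10.8% in either direction). Of all genes called, 64.4% were higher in Aldara, and 49.7% with upper-quartile in place of TMM factors. The median log2 fold change was 0.91 over the 9 genes and 0.01 over all tested genes. The tests are edgeR quasi-likelihood tests with adjustment over all 16780 genes and a threshold of 0.05. With the replicate number as a block the count was 6 and 0, beside 9.21% and 6.14% of all genes (15.4% in either direction). The same 5 genes had every Aldara library above every Vehicle library, as had 9.97% of all tested genes, whereas 7.79% lay wholly below (17.8% in either direction).

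**Figure D1:**
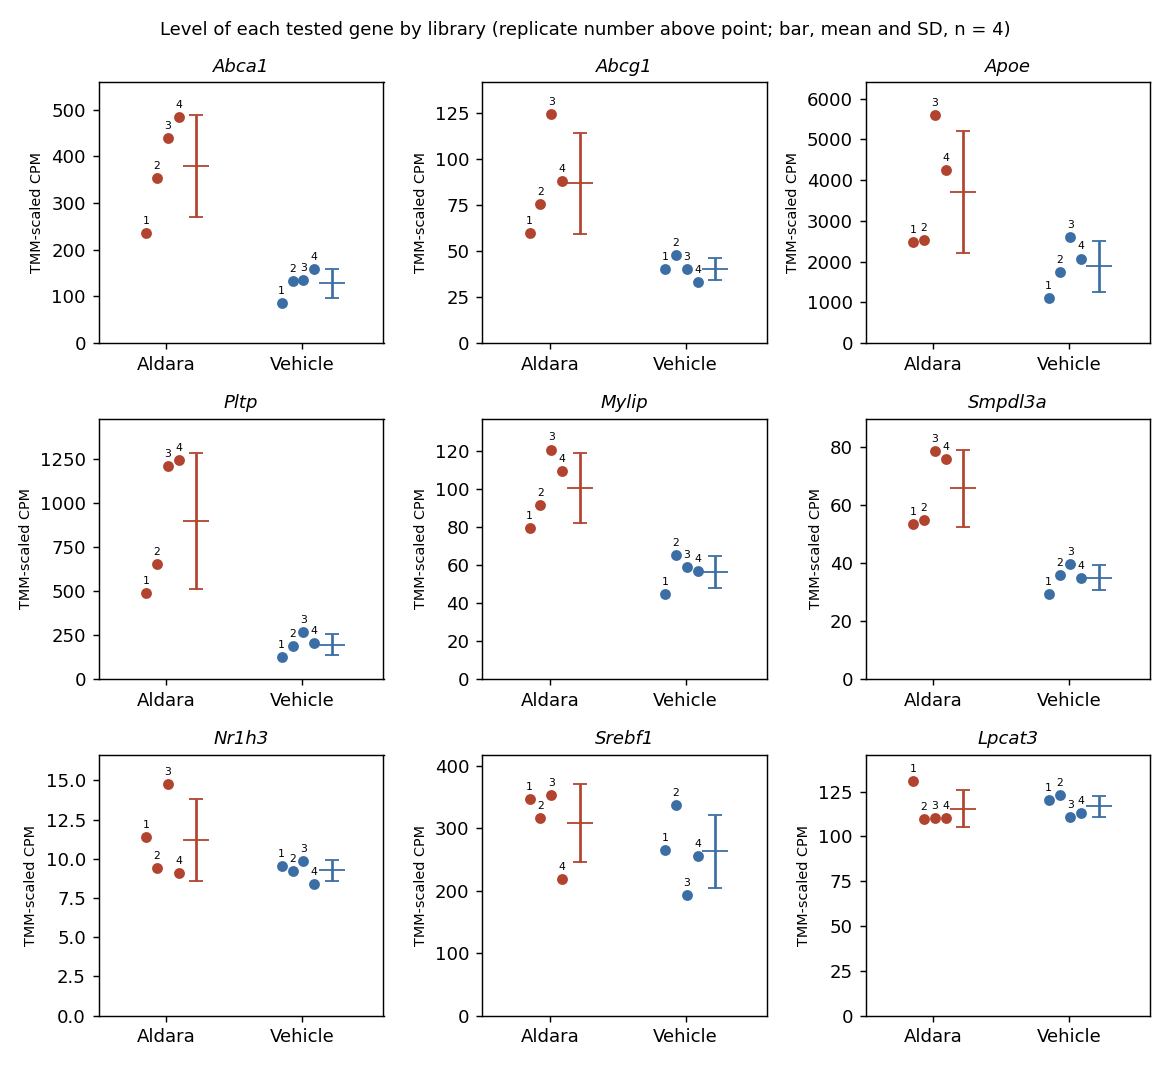
Level of the 9 tested genes in TMM-scaled CPM (linear axes from 0) in the 4 Aldara libraries, left, and the 4 Vehicle libraries, right. Points are libraries with their replicate number and bars give the mean and SD; all Aldara points lie above all Vehicle points for Abca1, Abcg1, Pltp, Mylip and Smpdl3a, whereas the groups overlap for Apoe, Nr1h3, Srebf1 and Lpcat3.

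Abca1 (ENSMUSG00000015243) encodes the transporter that loads cholesterol and phospholipid onto lipid-poor apolipoprotein A-I. It measured 236, 354, 439 and 484 CPM in the Aldara libraries 1 to 4, against 85, 133, 136 and 158 CPM in the Vehicle libraries 1 to 4. Every Aldara library was above every Vehicle library, and replicate 1 was the lowest of each group. The log2 fold change was 1.56 (SE 0.25), a 2.95-fold rise (edgeR adjusted p = 0.00635). Abcg1 (ENSMUSG00000024030) passes cholesterol on to mature HDL particles. Its levels were 59.5, 75.2, 124 and 87.8 CPM in Aldara and 40.4, 47.7, 40.4 and 33 CPM in Vehicle. The groups did not overlap here either, and Aldara replicate 3 was the highest library. It rose by 1.1 on the log2 scale (SE 0.21, edgeR adjusted p = 0.012), a call that was lost without the low-count filter (edgeR adjusted p = 0.0597).

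Of their relatives, Abcg4, a transporter close to Abcg1, was low in both groups and fell to 0.631 ± 0.206 CPM in Aldara, against 1.64 ± 0.225 CPM in Vehicle (SD, n = 4 each, edgeR adjusted p = 0.0151). The sterol exporters of gut and liver, Abcg5 and Abcg8, stayed at or below 0.47 CPM in Aldara and 0.706 CPM in Vehicle and were not tested. Abca7 measured 33.4 ± 2.49 CPM in Aldara and 39.9 ± 10.1 CPM in Vehicle (edgeR adjusted p = 0.339).

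Pltp (ENSMUSG00000017754) encodes a secreted protein that moves phospholipids between lipoprotein particles and remodels HDL. It had 489, 652, 1211 and 1245 CPM in Aldara and 125, 188, 270.3 and 204 CPM in Vehicle. Aldara replicates 3 and 4 were far above replicates 1 and 2, and all were above the Vehicle libraries. Its log2 fold change of 2.19 (SE 0.34, edgeR adjusted p = 0.00627) was the largest of the 9 genes. Of the exon bases of Pltp, 19.3% are shared with Ctsa on the other strand, and this library kit does not mark strand. Ctsa, a lysosomal protease, rose too, with 259 ± 62.8 CPM in Aldara and 157 ± 16.8 CPM in Vehicle. Its log2 change of 0.72 (SE 0.16, edgeR adjusted p = 0.0196) was smaller than that of Pltp. How far reads of Ctsa were counted for Pltp was not tested.

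Apoe (ENSMUSG00000002985) encodes apolipoprotein E, which macrophages secrete as an acceptor of cholesterol. Its levels were 2486, 2531, 5593 and 4239.5 CPM in Aldara, against 1109, 1736, 2606 and 2076 CPM in Vehicle. The groups overlapped, since Vehicle replicate 3 lay above Aldara replicates 1 and 2. The log2 fold change was 0.98 (SE 0.33), with an edgeR adjusted p of 0.0894, and 0.00139 with the replicate block. In each numbered pair the Aldara library was the higher one. Apoc2, the cofactor of lipoprotein lipase, had 0 counts in all 8 libraries, where 3 counts would be worth 0.0847 to 0.16 CPM. Gm44805, a gene model that shares 79.5% of the exon bases of Apoc2, also had 0 counts, so these zeros do not show that Apoc2 RNA was absent. The neighbour Apoc1, a small apolipoprotein, measured 11.2 ± 1.14 CPM in Aldara and 13.6 ± 7.23 CPM in Vehicle (edgeR adjusted p = 0.606).

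Mylip (ENSMUSG00000038175) encodes IDOL, the ubiquitin ligase that sends lipoprotein receptors to the lysosome. It had 79.7, 91.7, 121 and 109.7 CPM in Aldara and 45, 65.3, 59.1 and 56.8 CPM in Vehicle. The groups did not overlap, and the log2 fold change was 0.83 (SE 0.15, edgeR adjusted p = 0.00666). Vldlr and Lrp8, which encode lipoprotein receptors that IDOL acts on, were low and did not pass the test (edgeR adjusted p = 0.445 and 0.808), at 6.8 ± 1.68 and 1.52 ± 0.343 CPM in Aldara and 5.7 ± 0.44 and 1.64 ± 0.35 CPM in Vehicle.

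Smpdl3a (ENSMUSG00000019872) encodes a secreted phosphodiesterase related to acid sphingomyelinase. Its levels were 53.4, 54.9, 78.5 and 75.8 CPM in Aldara, against 29.4, 35.8, 39.8 and 34.9 CPM in Vehicle. The Aldara libraries fell into a lower pair, replicates 1 and 2, and a higher pair, replicates 3 and 4, and every one was above the Vehicle libraries. The log2 fold change was 0.91 (SE 0.15, edgeR adjusted p = 0.00507).

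The receptor itself and its lipogenic targets showed smaller differences. Nr1h3 (ENSMUSG00000002108), which encodes LXR-alpha, had 11.4, 9.44, 14.8 and 9.1 CPM in Aldara and 9.57, 9.23, 9.86 and 8.38 CPM in Vehicle. The groups overlapped and Aldara replicate 3 was the highest library (log2 fold change 0.27, SE 0.17, edgeR adjusted p = 0.341). Srebf1 (ENSMUSG00000020538), which encodes SREBP1, the activator of fatty acid synthesis, had 347, 316, 353 and 219 CPM in Aldara and 266, 337, 193 and 256 CPM in Vehicle. Aldara replicate 4 lay below 3 of the Vehicle libraries, and the log2 fold change was 0.23 (SE 0.19, edgeR adjusted p = 0.488). Lpcat3 (ENSMUSG00000004270), which puts polyunsaturated chains into phospholipids, had 131, 110, 110.5 and 110.4 CPM in Aldara and 120.3, 123, 111 and 113 CPM in Vehicle. Its log2 fold change was -0.02 (SE 0.09, edgeR adjusted p = 0.926), and its 8 libraries lay between 110 and 131 CPM. Of the exon bases of Lpcat3, 10.2% are shared with Emg1 on the other strand.

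Per kilobase of annotated exon (union of GENCODE M21 exons), Apoe had the highest level of the 9 genes in Aldara, 1736 ± 699.7 CPM per kb, followed by Pltp at 351 ± 151, Srebf1 at 54.8 ± 11 and Abca1 at 36.5 ± 10.5 CPM per kb (SD, n = 4). Lpcat3, Smpdl3a and Mylip followed at 35.3 ± 3.17, 31.8 ± 6.46 and 31.1 ± 5.69 CPM per kb and did not differ from each other or from Abca1 beyond their spread. Abcg1 at 11.9 ± 3.76 and Nr1h3 at 4.45 ± 1.04 CPM per kb were the lowest in Aldara. In Vehicle the order began and ended with the same genes. They were Apoe at 880.1 ± 293, Pltp at 76.8 ± 23.3, Srebf1 at 46.7 ± 10.5, Lpcat3 at 35.7 ± 1.76 and, at the low end, Abcg1 at 5.53 ± 0.822 and Nr1h3 at 3.68 ± 0.255 CPM per kb. Mylip, Smpdl3a and Abca1 lay between them in Vehicle, at 17.5 ± 2.63, 16.9 ± 2.07 and 12.4 ± 2.97 CPM per kb. Abca1 thus stood below Lpcat3, Mylip and Smpdl3a in Vehicle and beside them in Aldara.

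The rise of these genes was next set against the rise of macrophage transcripts as a whole. The gauge, the geometric mean of the 20 macrophage genes, was 120.1, 173, 314 and 289 CPM in Aldara, against 59.1, 77.8, 97.5 and 76.3 CPM in Vehicle. It was 1.44 higher in Aldara on the log2 scale (exact permutation test, two-sided, 4 libraries against 4, p = 0.0286, the smallest this design can give). More macrophages and more of these transcripts per macrophage cannot be told apart in such pools. The log2 fold change was 1.56 for Abca1 and 2.19 for Pltp, and between -0.02 and 1.1 for the other 7 genes. The 2 libraries of the Aldara group with the highest gauge, replicates 3 and 4, were also the 2 with the highest Abca1, Abcg1, Apoe, Pltp, Mylip and Smpdl3a.

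**Figure D2:**
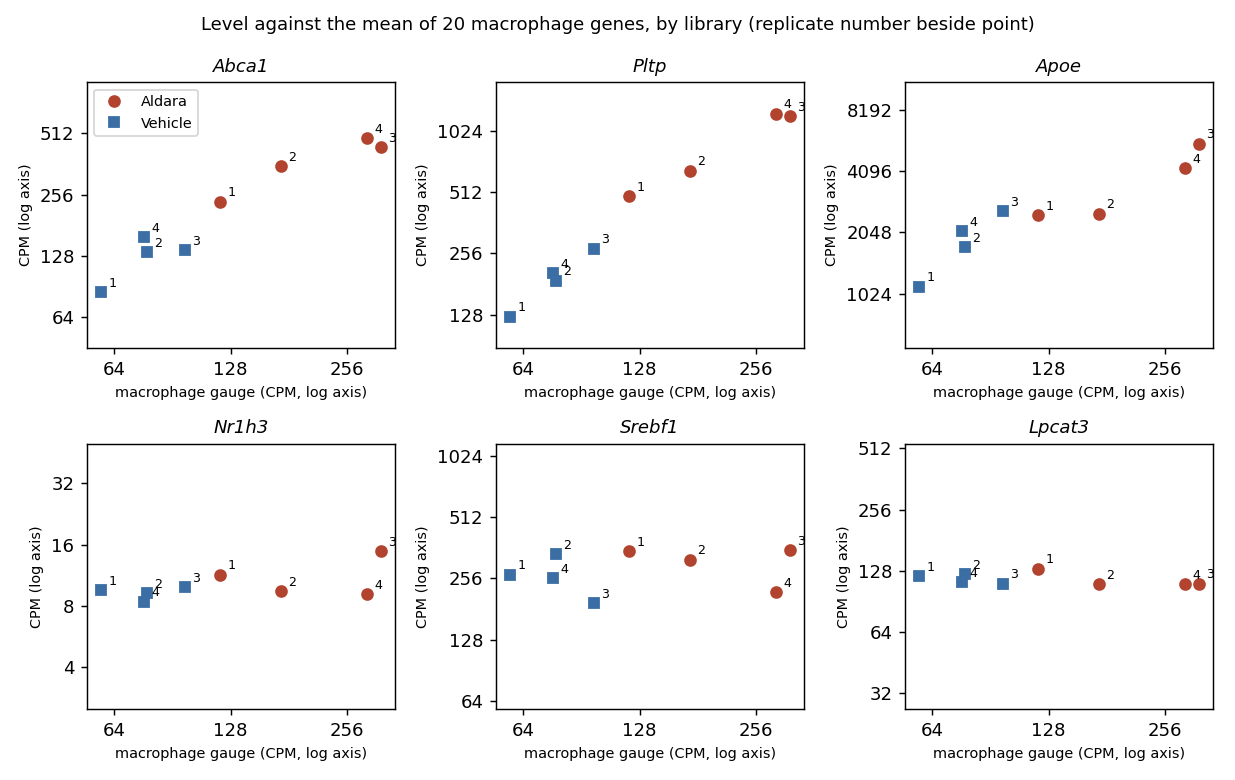
Level of 6 of the genes (CPM, log axis) against the macrophage gauge (CPM, log axis) in each library, Aldara as circles and Vehicle as squares, with the replicate number beside each point. Abca1, Pltp and Apoe are highest in the libraries with the highest gauge, Aldara replicates 3 and 4. Over a gauge of 59.1 to 314 CPM, Nr1h3 ranges from 8.38 to 14.8 CPM, Srebf1 from 193 to 353 CPM and Lpcat3 from 110 to 131 CPM. Nr1h3 and Srebf1 are also highest in Aldara replicate 3, but not second highest in replicate 4.

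Relative to the gauge, the level of Pltp on the log2 scale was 2.03, 1.92, 1.95 and 2.11 in Aldara, against 1.11, 1.29, 1.48 and 1.43 in Vehicle. Pltp was the only 1 of the 9 genes whose Aldara libraries all stood above the Vehicle libraries on this scale, with a difference of 0.68 (two-sided exact permutation, n = 4 each, p = 0.0286, the smallest possible). Of all tested genes, 0.501% lay wholly above on this scale and 82% wholly below (82.5% in either direction). Abca1 measured 0.82 ± 0.25 in Aldara and 0.73 ± 0.26 in Vehicle relative to the gauge, a difference of 0.09 that lay within the spread (two-sided exact permutation, n = 4 each, p = 0.743). Abcg1 differed by -0.42 (two-sided exact permutation, p = 0.171), with overlapping groups. Nr1h3 and Lpcat3 lay below the Vehicle libraries in every Aldara library, by -1.24 and -1.47 (two-sided exact permutation, p = 0.0286 for each), as did the 82% of all tested genes given above. Apoe, Mylip, Smpdl3a and Srebf1 differed by -0.49, -0.64, -0.59 and -1.21, each with overlapping groups and an exact permutation p of 0.0571.

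When the gauge was put into the edgeR model as part of the library scaling, 0 of the 9 genes were called higher and 3 were called lower, Nr1h3, Lpcat3 and Srebf1. The SEs of the 9 genes in this model were 0.4 to 0.43, against 0.09 to 0.34 per library size. Being nearly equal, they do not measure the spread of each gene between pools. Pltp, with SDs of 0.08 in Aldara and 0.17 in Vehicle relative to the gauge, had an SE of 0.41. On this scale 0.447% of all tested genes were called higher and 87.4% lower (87.9% in either direction), and the median of all tested genes was -1.34, so a lower value is what most genes of these libraries show. The log2 fold changes were -1.11 (SE 0.43) for Nr1h3, -1.34 (SE 0.41) for Lpcat3 and -1.1 (SE 0.41) for Srebf1, near that median, whereas those of the other 6 genes lay between -0.59 and 0.68. The single genes of the gauge ran from -1.16 for Fcgr1 to 1 for Aif1 on this scale, with Fcer1g at 0.78 and Coro1a at 0.75. The 0.68 of Pltp thus lay within the spread of the gauge genes. With the replicate block 1 gene was called higher, Pltp (log2 fold change 0.69, edgeR adjusted p = 0.00368), and 6 were called lower, beside 0.691% and 92.9% of all genes (93.6% in either direction). The call on Nr1h3 was lost without Vehicle replicate 1 (edgeR adjusted p = 0.0551) and that on Srebf1 without Aldara replicate 4 (0.0694), whereas without Aldara replicate 1 Mylip (0.0293) and Smpdl3a (0.0383) were called lower too.

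**Figure D3:**
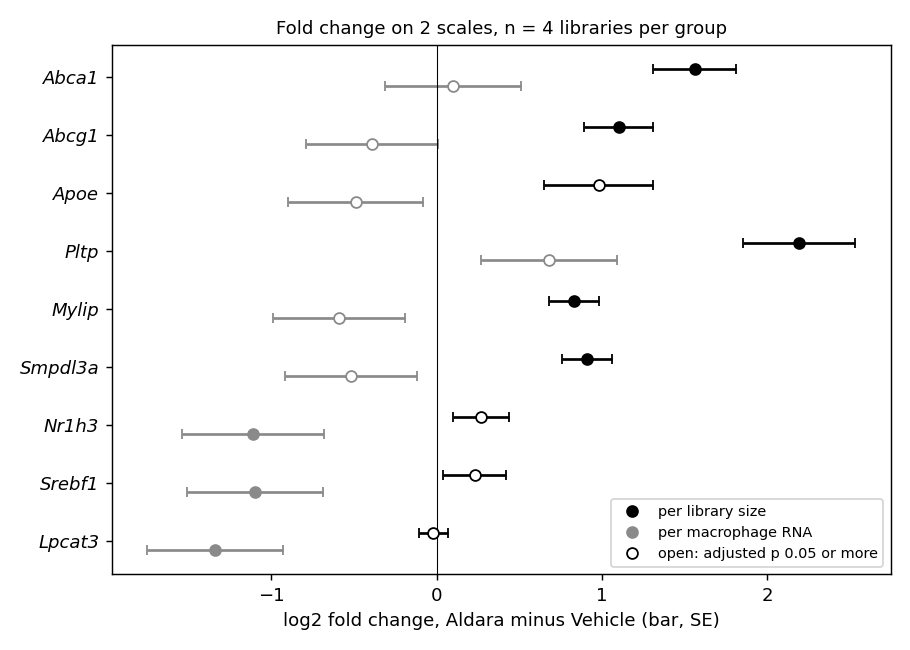
Log2 fold change, Aldara minus Vehicle, with its SE, for the 9 genes per library size (black) and per macrophage RNA (grey), from 4 libraries per group; filled points passed an edgeR adjusted p of 0.05. On the first scale 5 genes lie right of 0 with filled points, from 0.83 for Mylip to 2.19 for Pltp, and on the second the filled points are those of Nr1h3, Srebf1 and Lpcat3, between -1.34 and -1.1.

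The surrounding pathway was described from lists of genes with known roles. The count of each list stands beside 6.98% of all tested genes risen and 3.86% fallen (9.21% and 6.14% with the replicate block). Among receptors and cofactors, 2 of 12 tested genes rose and 0 fell, with a median log2 fold change of 0.12. These were the coactivators Ncoa1, at 81.8 ± 9.88 CPM in Aldara and 60.9 ± 2.44 CPM in Vehicle, and Ncoa3, at 128 ± 10.6 CPM in Aldara and 94.4 ± 10.6 CPM in Vehicle (SD, n = 4 each, edgeR adjusted p = 0.0169 and 0.0196). Ncoa1 lost its call without Aldara replicate 2 (0.0521), and Ncoa3 without Aldara replicate 2, 3 or 4 or Vehicle replicate 1 (0.0547 to 0.0663). Nr1h2, which encodes LXR-beta, measured 155, 133, 142 and 120 CPM in Aldara and 130.4, 131, 116 and 125 CPM in Vehicle (edgeR adjusted p = 0.425). Rxra, the retinoid X receptor alpha, measured 134 ± 9.89 CPM in Aldara and 133 ± 11 CPM in Vehicle (edgeR adjusted p = 0.953). Neither LXR transcript thus passed the test, and Gps2, a corepressor subunit with a log2 fold change of 0.24, did not pass either (edgeR adjusted p = 0.19).

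Among 16 other tested LXR targets, 3 rose and 1 fell, with a median of 0.18 (5 and 1 with the replicate block). Lpl, lipoprotein lipase, rose to 94.8, 164, 315 and 215 CPM in Aldara, against 58.2, 77.7, 67.3 and 63 CPM in Vehicle. Its log2 fold change was 1.57 (SE 0.31, edgeR adjusted p = 0.0141), and the call was lost without Aldara replicate 4 (0.0543). Arl4c, a small GTPase linked to cholesterol export, and Fads1, a fatty acid desaturase, rose by 0.56 (SE 0.15) and 0.49 (SE 0.13). Arl4c lost its call without Aldara replicate 2, 3 or 4 or Vehicle replicate 1, 2 or 3 (edgeR adjusted p of 0.0678 to 0.113), and Fads1 without any 1 library other than Aldara replicate 4 (0.0628 to 0.0991). Tgm2, a transglutaminase, fell to 775 ± 180.3 CPM in Aldara, against 3182 ± 2462 CPM in Vehicle, where replicate 1 stood at 6789.9 CPM, a call lost without any 1 of the 4 Aldara libraries (0.0602 to 0.0757). Its log2 fold change was -2.04 with all libraries and -1.35 without Vehicle replicate 1 (edgeR adjusted p = 0.0158). Without the low-count filter Lpl and Tgm2 were not called (edgeR adjusted p = 0.0814 and 0.114), nor was Fads1 with upper-quartile factors (0.061) or with limma-voom (0.0542), nor Arl4c with limma-voom (0.0515). The lipogenic targets Scd1 and Fasn, chosen after their values were seen, measured 294 ± 53.5 and 203 ± 35.6 CPM in Aldara and 281 ± 39.9 and 207 ± 31.2 CPM in Vehicle, and neither passed (edgeR adjusted p = 0.838 and 0.938). Mertk, a receptor for dying cells, and Cd5l, a secreted macrophage protein, had log2 fold changes of 1.14 and 0.9 with edgeR adjusted p-values of 0.0515 and 0.0992, and passed with the replicate block (0.000892 and 0.0122), without Aldara replicate 1 (0.0147 and 0.0115) and with DESeq2 (0.00158 and 0.0249).

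Genes of sterol storage and transport held the next highest median, 0.38, with 5 of 12 tested genes risen and 0 fallen. Per macrophage RNA, 0 of the 12 were called higher and 8 lower, with a median of -1.05. Of all tested genes, 0.447% were called higher and 87.4% lower on that scale. No gene of the other pathway lists was called higher on it either. Gramd1b, which encodes Aster-B, a carrier of cholesterol from the plasma membrane to the endoplasmic reticulum, had 16.4, 30.4, 50.8 and 47 CPM in Aldara and 7.27, 6.17, 8.3 and 8.99 CPM in Vehicle. Its log2 fold change was 2.23 (SE 0.33, edgeR adjusted p = 0.00518), close to that of Pltp, and its value per macrophage RNA was 0.65 (edgeR adjusted p = 0.114). Nceh1, a cholesteryl ester hydrolase, rose to 31.2 ± 8.84 CPM in Aldara, against 14.5 ± 1.33 CPM in Vehicle, and Lipa, the lysosomal acid lipase, to 164 ± 36.9 CPM in Aldara, against 83.8 ± 12.9 CPM in Vehicle (SD, n = 4 each, edgeR adjusted p = 0.00643 and 0.00638). Plin2, a lipid droplet coat protein, rose by 0.93 (SE 0.2), a call lost without Aldara replicate 3 (edgeR adjusted p = 0.0575) or Vehicle replicate 1 (0.0527) or 2 (0.0531), or without the low-count filter (0.0773). Npc1, the lysosomal cholesterol exporter, named after its value was seen, rose by 0.42 (SE 0.1) and lost its call without Aldara replicate 2, 3 or 4 or Vehicle replicate 1 or 4 (0.0557 to 0.0769). Per macrophage RNA, Nceh1, Lipa and Plin2 had log2 fold changes of -0.38, -0.46 and -0.54 and were not called. Npc1 was called lower there, at -0.97 (edgeR adjusted p = 0.0194).

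Among proteins of lipoprotein uptake, the scavenger receptor Cd36 had 249, 221, 279 and 379 CPM in Aldara and 163, 165, 161 and 148 CPM in Vehicle, and the endocytic receptor Lrp1 rose to 320.2 ± 75.3 CPM in Aldara, against 168 ± 25.5 CPM in Vehicle (log2 fold changes 0.83 and 0.93, edgeR adjusted p = 0.00716 and 0.00981). Of the 7 tested genes of that list 2 rose and 1, Abcg4, fell. In the arm of sterol synthesis, 0 of 24 tested genes rose and 1 fell, with a median of -0.1. The share fallen was near the 3.86% of all tested genes that fell. The gene that fell was Ebp, a sterol isomerase, at 38.7 ± 5.73 CPM in Aldara and 73.6 ± 22.2 CPM in Vehicle (edgeR adjusted p = 0.0177), a call lost without Aldara replicate 2 (0.0513) or 4 (0.0565). Fdft1, squalene synthase, and Insig2, which retains the SREBP complex, had log2 fold changes of -0.28 and -0.22 and did not pass (edgeR adjusted p = 0.186 and 0.0831). Insig2 was called lower with upper-quartile factors (edgeR adjusted p = 0.0373). Its Aldara libraries all lay below its Vehicle libraries, as did those of 7.79% of all tested genes. None of the 5 tested genes of oxysterol metabolism was called by edgeR, with 0 at an unadjusted p under 0.05. Ch25h, which makes 25-hydroxycholesterol, measured 3.54 ± 1.1 CPM in Aldara and 5.29 ± 1.74 CPM in Vehicle, and Cyp27a1, which makes 27-hydroxycholesterol, measured 27.1 ± 7.09 CPM in Aldara and 18.8 ± 8.48 CPM in Vehicle (edgeR adjusted p = 0.231 and 0.36, and 0.0144 for Cyp27a1 with the replicate block). Sult2b1, an oxysterol sulfotransferase, measured 13.9 ± 3.44 CPM in Aldara and 14.2 ± 1.47 CPM in Vehicle (edgeR adjusted p = 0.94).

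**Figure D4:**
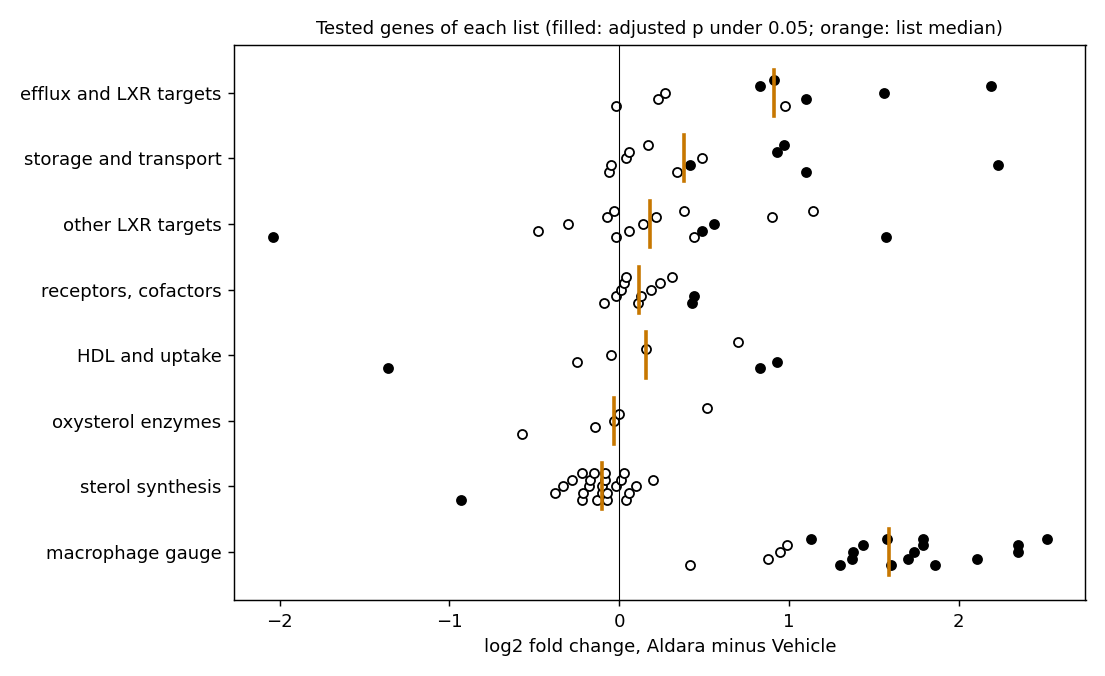
Log2 fold change, Aldara minus Vehicle, of every tested gene of the 10 followed here (top row), of 6 pathway lists and of the macrophage gauge (bottom row); filled points passed an edgeR adjusted p of 0.05 and the orange bar is the list median. The medians run from -0.1 for sterol synthesis to 0.91 for the efflux and LXR targets, and the median of the 20 single genes of the gauge is 1.59.

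The genes whose pattern over the 8 libraries was most like that of 3 of these genes were named by the smallest root-mean-square difference of the centred log2 level, among 11494 candidates with at least 5 CPM on average. For Abca1 they were Igsf6, Blnk and Mpeg1, at 0.147, 0.155 and 0.162, all 3 of them higher in Aldara by 1.75 to 1.97 on the log2 scale. For Apoe they were Bcl2a1d, Csf1r and Il10ra, at 0.145, 0.154 and 0.156, where near-identical copies of Bcl2a1d may share reads. Csf1r, a growth factor receptor of macrophages that is also in the gauge, had a log2 fold change of 0.99 beside 0.98 for Apoe. For Nr1h3 they were an identifier without a symbol, ENSMUSG00000121107, at 0.076, and Slc48a1 and Rpusd1, at 0.099 and 0.101, with log2 fold changes of 0.3, 0.2 and 0.21. The difference between the groups is part of this measure, so similar fold changes follow from the way these genes were chosen.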

How the data were processed

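The deposited table holds raw read counts per Ensembl gene for 8 libraries, whole numbers that were not normalised. The tools named in the submitters' processing notes are HISAT2 2.0.5 and featureCounts 1.5.0-p3, with DESeq2, and the build is mm10. How reads on overlapping genes were counted is not given in these sources. Per the labels' protocols, cDNA was amplified with a SMARTer ultra-low-input kit, so overlapping genes on opposite strands cannot be separated. Symbols came from GENCODE M21 (52073 of 56748 identifiers), which also gave exon lengths. The other identifiers of the count table had no symbol there, so the annotation behind the counts differs from it. Exon lengths and shared exon bases may thus differ from those used in the counting.

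Counts were tested with edgeR 4.0.16 (R 4.3.3): filterByExpr, TMM, robust quasi-likelihood F test, Benjamini-Hochberg over 16780 genes, threshold 0.05. Levels are mean ± SD, and SEs come from the F statistic. The gauge is the mean of log2(CPM + 2) over 20 macrophage genes. DESeq2 1.42.0 and limma 3.58.1 (voom) served as alternatives. Same-numbered libraries deviated together (correlations of 0.228, 0.108, 0.167 and 0.218 over genes, none stated in the labels), so the replicate number was also fitted as a block. No pair of libraries of a group agreed within sampling noise (chi-square per degree of freedom at least 20.4). The floor of 3 counts covers counting error only, whereas the SDs and SEs include spread between libraries.

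The genes, lists and tests were chosen with earlier results of these data known. The text names all 10 genes, up to 4 genes of each pathway list by smallest p, Vldlr, Lrp8, Nr1h2, Rxra and Lpl, and 3 genes each by likeness, except items not reported here; Adgre1, Scd1, Fasn, Mertk, Cd5l, Npc1, Apoc1, Abcg5, Abcg8 and the overlap partners Ctsa, Emg1 and Gm44805 were added after their values were seen.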

Additional observations from a re-analysis of the deposited data

Results flagged for a closer look

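Among 106 groups of 4 libraries checked, 4 held a library far from the other 3 by Dixon's criterion at the 95% level, which chance gives in about 1 of 20 groups. Lpcat3 stood at 131 CPM in Aldara replicate 1, where the other Aldara libraries lay between 110 and 110.5 CPM. Npc1 stood at 76.4 CPM in the same library, below 94.1 to 97.6 CPM in the others, and that library also had the lowest macrophage gauge of the Aldara group. Insig2 stood at 72.7 CPM in Vehicle replicate 2, against 71.2 to 71.4 CPM, a small gap among values that lay close together. Rpusd1, one of the genes most like Nr1h3, stood at 8.86 CPM in Vehicle replicate 1, against 7.65 to 7.84 CPM. The call on Npc1 was not lost without Aldara replicate 1, and Lpcat3 per library size was not called in any alternative.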

How the results depend on the processing

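Per library size, across 14 alternatives the calls on Abca1, Mylip, Pltp and Smpdl3a held in all, with adjusted p-values up to 0.0384, and that on Abcg1 in 13. Nr1h3, Srebf1 and Lpcat3 were called in 0 of them and Apoe in 1, the replicate block. The number of the followed genes called higher stayed between 4 and 6, at 5 without any 1 library, and 0 were called lower. All genes called lower numbered 990 under upper-quartile factors, 1154 with DESeq2 and 1030 with the replicate block, against 647; the balance of all calls was 49.7% higher under upper-quartile factors, against 64.4%. Leaving out 1 library gave 629 to 1405 genes higher and 323 to 664 lower. The counts moved by over 1.5 times without Aldara replicate 2 (353 lower), 3 (658 higher, 323 lower) or 4 (629 higher) and without Vehicle replicate 1 (703 higher, 415 lower) or 2 (699 higher, 412 lower). Per macrophage RNA the replicate block gave 1 higher and 6 lower, and leaving out 1 library gave 0 higher and 2 to 5 lower, the most without Aldara replicate 1. The gauge difference ranged from 1.25 to 1.71 without 1 library, with an exact p of 0.0286 without any 1 Aldara library and 0.0571 without any 1 Vehicle library (values of 1.32 to 1.56).
Signs of values near 0 turned without any call. Rxra took 0 with RLE factors, without the filter and with DESeq2, -0.04 with upper-quartile factors, and -0.03 to 0.05 without single libraries. Without single libraries Lpcat3 ranged from -0.08 to 0.01, Sult2b1 from -0.21 to 0.04, Lrp8 from -0.28 to 0.01, Scd1 from -0.03 to 0.14, and Fasn from -0.12 to 0.05. The cause was not tested. Abcg5 and Abcg8 were below the low-count filter and Apoc2 had 0 counts, so no difference was tested for them.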
